A study of Mus musculus with 6 samples.

Results

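Intestinal calcium absorption under the control of vitamin D was examined through 5 genes, chosen by symbol from the 32285 features of the count tables: S100g, Vdr, Trpv6, Cyp24a1 and Atp2b1. Their abundance had been seen in these libraries before they were chosen, so their differences between genotypes are given as descriptions with no test. The epithelium of the small intestine was compared between 3 libraries labelled IE-HuR-/- and 3 libraries of control littermates, where the study's text gives 3 animals for each genotype. IE-HuR-/- mice carried floxed HuR alleles (HuR fl/fl) and a Cre recombinase driven by the villin promoter, which is active throughout the intestinal epithelium, and the controls were HuR fl/fl littermates without Cre. All animals were young adults of C57BL/6 background, matched for age and sex. Mucosal cells were released with EDTA and enzyme from the villus and the crypt and loaded for droplet-based single-cell RNA sequencing, and RNA molecules were counted by their unique molecular identifiers (UMIs). The middle small intestine is named in the study's methods for histology and extracts, and no segment is named for the sequenced cells.

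Vitamin D raises calcium uptake by acting through its nuclear receptor, encoded by Vdr, which pairs with retinoid X receptors on DNA. Calcium enters the enterocyte from the lumen through the apical channel encoded by Trpv6, is carried and buffered in the cytosol by the small calbindin encoded by S100g, and is pumped out across the basolateral membrane by the calcium ATPase encoded by Atp2b1. Cyp24a1 encodes the enzyme that breaks down active vitamin D and is a classic target of the receptor. The duodenum is the segment in which this route is most developed.

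The genes lie on different chromosomes of the GRCm38 build. S100g (ENSMUSG00000040808) is at chrX:162961992-162964599 on the minus strand, Vdr (ENSMUSG00000022479) at chr15:97854425-97910630 on the minus strand, Trpv6 (ENSMUSG00000029868) at chr6:41620624-41636405 on the minus strand, Cyp24a1 (ENSMUSG00000038567) at chr2:170482708-170497145 on the minus strand, and Atp2b1 (ENSMUSG00000019943) at chr10:98914406-99026143 on the plus strand. S100g overlaps Ctps2 and Cyp24a1 overlaps Pfdn4, both on the opposite strand, and the strand setting of the counting was not given in the sources used here. Promoter windows from RefSeq (GRCm38.p6), each running from 250 bases before to 50 bases after an annotated start, were matched for 4 of the 5 genes. The windows of S100g and Trpv6 are shown because these RNAs differed most between genotypes and occurred in the same cells. Capitals mark AGGTCA, the half-site of nuclear receptors such as the vitamin D receptor, on either strand (TGACCT on the strand shown), and the TATA box TATAAA.
S100g, chrX:162964550-162964849, minus strand: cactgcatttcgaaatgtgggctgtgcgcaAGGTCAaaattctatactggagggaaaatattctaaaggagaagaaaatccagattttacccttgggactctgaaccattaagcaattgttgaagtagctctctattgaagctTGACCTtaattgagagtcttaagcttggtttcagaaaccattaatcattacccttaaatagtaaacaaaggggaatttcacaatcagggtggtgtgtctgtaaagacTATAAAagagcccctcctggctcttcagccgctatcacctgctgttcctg
Trpv6, chr6:41636356-41636655, minus strand: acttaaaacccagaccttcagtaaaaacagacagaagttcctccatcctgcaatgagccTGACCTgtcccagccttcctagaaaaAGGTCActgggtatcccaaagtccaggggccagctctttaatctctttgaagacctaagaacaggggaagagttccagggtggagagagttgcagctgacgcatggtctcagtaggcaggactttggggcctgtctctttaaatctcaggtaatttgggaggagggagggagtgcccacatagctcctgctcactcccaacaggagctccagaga

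Both windows held 2 AGGTCA half-sites, 1 on each strand, whereas the Vdr window and the 2 Atp2b1 windows held 0. Among 32851 windows of the same length, 16.3% held at least 1 such half-site and 1.81% held 2 or more. The S100g window had a TATA box that began at the annotated start itself, and 13.6% of all windows held one. The degenerate vitamin D response element, a direct repeat of the half-site with a gap of 3 bases, was searched on both strands and found in 0.256% of all windows and in none of these. GC content of the windows was 41.0% for S100g, 51.3% for Trpv6, 61.3% for Vdr and 79.3% for both Atp2b1 windows, against a median of 52.7%. These matches describe the letters of the windows only.

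HuR is an RNA-binding protein known for binding AU-rich elements in the 3' untranslated region (UTR), of which ATTTA is the core. In GENCODE vM21 transcripts, the 3' UTR was 144 bases for S100g and 444 bases for Trpv6, and neither held an ATTTA. The 3' UTR of Vdr was 2947 bases with 2 copies, that of Atp2b1 3024 bases with 7, and that of Cyp24a1 1644 bases with 6. Over 20693 protein-coding genes the median length was 798 bases, and 61.6% of the 3' UTRs held at least 1 ATTTA. These lengths and matches are a description, and binding of HuR was not tested.

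The 6 libraries held 60706 barcodes and 428980031 UMIs, between 59518012 and 91818560 UMIs per library, and 435 barcode sequences occurred in more than 1 library. Barcodes with at least 200 genes were assigned to classes by the share of UMIs in marker genes, which gave 39526 enterocyte-like cells, between 5540 and 10559 per library with a median of 1525 UMIs. Of the enterocyte-like cells, 9.59% were within 1.2 times a threshold. All 16 enterocyte markers were at least 2-fold higher in the class than in the other classes, and no marker of another class was among its 10 leading RNAs. The same markers set the classes, so both were largely fixed by the gate and are no separate check of the class name. Another 11407 barcodes with at least 200 genes were given no class. Elavl1, the gene for HuR, had 29.8 ± 1.68 CPM (counts per 1000000 UMIs of the class in a library; SD, n = 3 libraries) in enterocyte-like cells of the controls. The libraries labelled IE-HuR-/- had 30.2 ± 0.672 Elavl1 CPM (SD, n = 3). Elavl1 RNA was thus not lower there, and whether the counted tags lie inside the floxed part was not given in the sources used here. For the protein, the study reports HuR below detection in small intestinal mucosa of IE-HuR-/- mice. It also reports an almost complete loss of HuR staining in their epithelial cells. Within the sequenced RNA, each direction given for these libraries rests on the labels. S100g is X-linked, and none of the 6 libraries stood apart by sex, with Xist at 0.192 CPM or below and Ddx3y between 27.5 and 39.6 CPM in each. All 5 sex-linked RNAs were lower in each library labelled IE-HuR-/- than in any control, as were 51.6% of all RNAs tested. In sum they were at 122 to 130 CPM in the controls and 99.8 to 103 CPM in the others.

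S100g RNA was far lower in enterocyte-like cells of the libraries labelled IE-HuR-/-. It had 197, 160 and 275 CPM in control replicates 1, 2 and 3. It had 5.69, 7.24 and 5.06 CPM in IE-HuR-/- replicates 1, 2 and 3. The lowest control library was above the highest IE-HuR-/- library by a wide margin, and control replicate 3 was the highest of the 6. The means were 211 ± 58.7 CPM and 6.0 ± 1.12 CPM (SD, n = 3 each). The log2 fold change of IE-HuR-/- over control was -4.96 (standard error 0.335, edgeR). In pooled counts, 34920 S100g UMIs in the controls stood against 828 in the libraries labelled IE-HuR-/-, a ratio of 33.9 per UMI of the class (95% interval 31.7 to 36.4, exact binomial, covering counting error only).

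Trpv6 RNA was scarce under both labels, with 65 UMIs in the controls and 2 in the other libraries. It had 22, 21 and 22 UMIs in enterocyte-like cells of control replicates 1, 2 and 3, and 1, 0 and 1 UMIs in IE-HuR-/- replicates 1, 2 and 3. These were 0.383, 0.313 and 0.470 CPM against 0.0235, 0 and 0.0210 CPM. With 2 UMIs on 1 side, the ratio of control over IE-HuR-/- was 26.1 with a counting interval of 6.95 to 220 (95%, exact binomial). A count of 0 in IE-HuR-/- replicate 2 allows up to 0.0630 CPM (3 counts of its total). Trpv5, the close paralog of Trpv6, had 0 CPM in the 6 libraries.

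Vdr and Atp2b1 were lower by less. Vdr, the receptor, had 217, 206 and 211 CPM in control replicates 1, 2 and 3 and 159, 148 and 158 CPM in IE-HuR-/- replicates 1, 2 and 3, so that the labels did not overlap. Its log2 fold change was -0.28 (standard error 0.0424). Atp2b1, the basolateral pump, had 447, 405 and 420 CPM in the controls and 285, 286 and 283 CPM in the libraries labelled IE-HuR-/-, again without overlap. Its log2 fold change was -0.40 (standard error 0.0431). Without scaling by TMM, which corrects for differences in library composition, these became -0.45 for Vdr and -0.57 for Atp2b1, while the median over all RNAs tested moved from -0.03 to -0.20.

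Cyp24a1 was almost absent from enterocyte-like cells, with 0, 1 and 1 UMIs in control replicates 1, 2 and 3 and 0 UMIs in each library labelled IE-HuR-/-. Both labels were under the floor of 3 counts, so that no fold change was computed. Cyp24a1 did not pass the filter on low counts, and 4 of the 5 genes did. The labels did not overlap for these 4 genes, each lower under the IE-HuR-/- label. S100g was chosen for its difference between the labels, and Trpv6 passed the filter through its control counts alone. The direction of these genes was thus set beforehand, and the count of 4 is a description. Of all 12794 RNAs tested in enterocyte-like cells, 67.5% were without overlap, 51.6% lower and 15.9% higher. By edgeR's adjusted p, 58.4% of these RNAs were called in either direction, 31.0% lower and 27.5% higher.

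**Figure D1:**
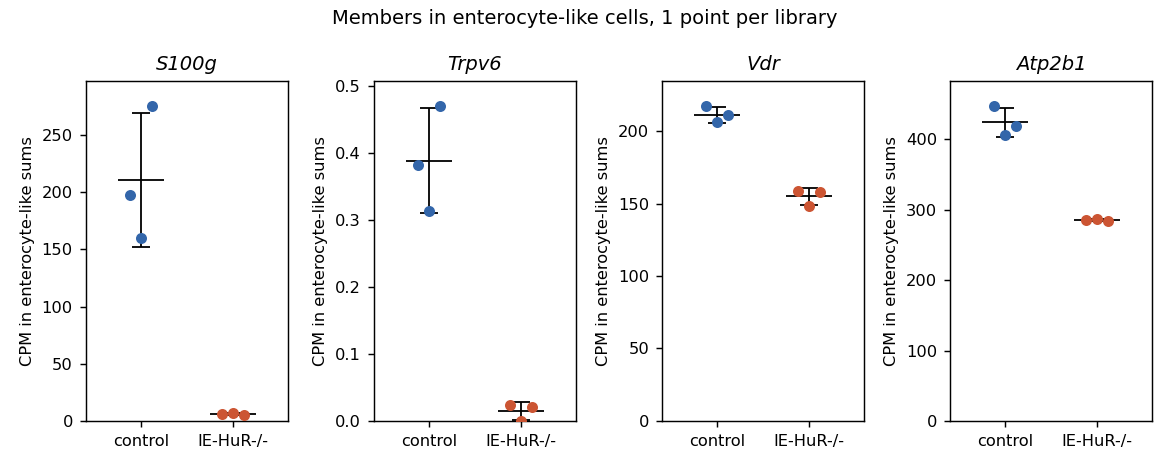
CPM of S100g, Trpv6, Vdr and Atp2b1 in enterocyte-like sums, 1 point per library (blue, control littermate; red, IE-HuR-/-), with the mean as a dash and the SD as a bar (n = 3). S100g sits between 160 and 275 CPM in the controls and at 7.24 CPM or below in the other libraries, whereas Vdr and Atp2b1 are separated by smaller steps.

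S100g UMIs were held by few cells. In control replicates 1, 2 and 3, 15, 26 and 9 cells held 50% of the S100g UMIs of enterocyte-like cells, out of 6222, 10559 and 5841 cells. The single highest cell had 753, 516 and 1352 S100g UMIs in these libraries. In IE-HuR-/- replicates 1, 2 and 3 the highest cell had 45, 27 and 17 UMIs, and cells with at least 20 S100g UMIs numbered 3, 3 and 0, against 74, 83 and 62 in the controls. The S100g level of a control library was therefore set by about 1% of its enterocyte-like cells, which held 79.3%, 72.7% and 86.9% of its S100g UMIs. Vdr and Atp2b1 were spread more evenly, as the top 1% of cells held between 13.7% and 17.7% of the Vdr UMIs and between 16.1% and 22.3% of the Atp2b1 UMIs over the 6 libraries.

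**Figure D2:**
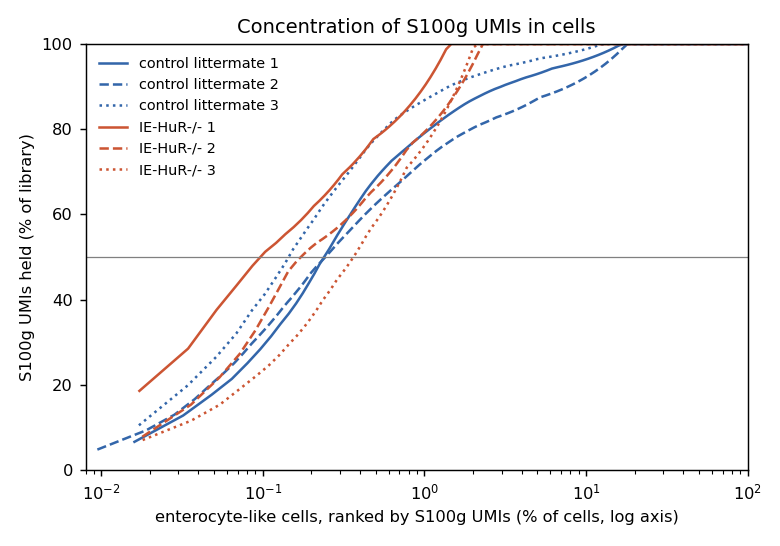
Share of the S100g UMIs of a library held by its enterocyte-like cells, ranked from the cell with most S100g UMIs (x axis, percent of cells on a log axis; y axis, percent of S100g UMIs; 1 line per library; grey line, 50%). In the controls 50% of the UMIs are reached by 0.154% to 0.246% of the cells.

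The share of enterocyte-like cells with at least 1 S100g UMI was 16.6%, 17.9% and 12.6% in control replicates 1, 2 and 3 and 1.41%, 2.28% and 2.04% in IE-HuR-/- replicates 1, 2 and 3. To compare libraries at equal depth, cells with at least 2000 UMIs were thinned to 2000, which left out 12812 control and 9263 IE-HuR-/- enterocyte-like cells. The share was then 9.77%, 10.6% and 9.63% in the controls and 0.752%, 1.32% and 0.943% in the libraries labelled IE-HuR-/-. Free RNA can give a UMI in a cell that does not express S100g, so T or NK-like cells, which should lack it, were read in the same way. At 2000 UMIs, 3.69%, 5.55% and 2.83% of T or NK-like cells of the controls had a S100g UMI, against 0%, 0.104% and 0% in the libraries labelled IE-HuR-/-. Over all cells of each class, those left out included, median depth was 4709 UMIs in T or NK-like and 1525 UMIs in enterocyte-like cells. The enterocyte-like cells kept for thinning were deeper. Those without a S100g UMI at 2000 had medians of 11058.5, 9302.5 and 15771 UMIs in control replicates 1, 2 and 3. The share in enterocyte-like cells was above this background in each of the 6 libraries.

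Detection of S100g was set beside that of Trpv6, Vdr and Atp2b1 in turn, and cells holding all of these RNAs were not counted. Of the 37 Trpv6-positive enterocyte-like cells of the controls, 31 had 2 or more S100g UMIs, and these cells held 59 of the 65 Trpv6 UMIs. Trpv6 was found in 2.51% of the 1233 control cells with 2 or more S100g UMIs and in 0.0211% of the 18962 cells without one. The former cells were deeper, with medians of 7318 and 1339 UMIs. At equal depth of 2000 UMIs, Trpv6 was seen in 1, 4 and 3 of the 133, 181 and 104 S100g-rich cells (2 or more S100g UMIs) of control replicates 1, 2 and 3 and in none of the 3010, 3904 and 1906 cells without S100g. Both Trpv6-positive cells of the libraries labelled IE-HuR-/- lacked S100g.

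Vdr was detected in S100g-rich and S100g-free cells alike but was higher in the former. At 2000 UMIs it was seen in 45.9%, 44.8% and 44.2% of S100g-rich cells of control replicates 1, 2 and 3. It was seen in 31.0%, 29.3% and 30.3% of S100g-free cells of the same libraries. The exact 95% binomial intervals were 37.2% to 54.7% and 29.4% to 32.7% in replicate 1, and they cover counting error only. Co-detection of S100g with Vdr and with Trpv6 was part of how these genes were chosen. These shares and the Trpv6 counts above are therefore a description. Atp2b1 was at 921, 558 and 654 CPM in S100g-rich cells and at 340, 341 and 314 CPM in S100g-free cells. The share of cells with an Atp2b1 UMI differed less, at 50.4%, 44.2% and 40.4% against 42.8%, 42.3% and 40.2%. It was 26.9%, 28.2% and 33.3% in control cells with 1 S100g UMI, below both. Before thinning, the S100g-rich cells of this comparison had medians of 6209, 5366 and 8047 UMIs. The S100g-free cells were deeper, with medians of 11058.5, 9302.5 and 15771 UMIs. In the libraries labelled IE-HuR-/- only 6, 8 and 10 cells were S100g-rich at this depth, too few for the same comparison.

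Other RNAs also differed between S100g-rich and S100g-free control cells. The RNAs named in this paragraph were picked after their values were seen, and the differences are mean log2 ratios of CPM + 20 over the 3 control libraries with their SD. Slc40a1, the iron exporter ferroportin, was higher by 3.78 ± 0.312. Reg1, an RNA of the lower villus, was higher by 2.83 ± 0.0741, and Il18 and Nlrp6 of the same list by 1.18 ± 0.164 and 0.60 ± 0.244. Reg3b, Reg3g and Ccl25 of that list had ratios of -0.80 ± 0.422, -0.74 ± 0.383 and -0.48 ± 0.561, below 0 in 3 of 3 libraries. Pigr, also of that list, had a ratio of -0.10 ± 0.142. Akp3, an intestinal alkaline phosphatase, was higher by 2.69 ± 0.144. Fth1, the ferritin heavy chain, was higher by 2.00 ± 0.0156. Pdx1, a transcription factor of the duodenum, was higher by 1.52 ± 0.270. Of the listed proximal RNAs, which include Slc40a1 and Pdx1, only Lct had a mean ratio below 0. It was -0.66 ± 0.110, and below 0 in 3 of 3 libraries. Slc37a2 and the manganese exporter Slc30a10, both of which respond to vitamin D in the intestine, were higher by 1.24 ± 0.0906 and 1.22 ± 0.243. The rest of the listed intestinal vitamin D targets did not follow, with ratios of 0.01 ± 0.0958 for Cldn2, 0.03 ± 0.107 for Cldn12 and -0.17 ± 0.269 for Cdkn1a. Each RNA given as higher was so in 3 of 3 control libraries. Plb1 was lower, with a ratio of -2.29 ± 0.261, and so was Slc10a2, the bile acid transporter of the ileum, with -1.46 ± 0.446. Fabp6, the ileal bile acid binding protein, was at 41.4 and 30.4 CPM in S100g-rich cells of control replicates 1 and 2 but at 942 CPM in those of replicate 3, against 858 to 957 CPM in S100g-free cells. Of the other listed ileal RNAs, Slc51a and Slc51b had ratios of -0.90 ± 0.172 and -0.25 ± 0.156. Nr1h4 went the other way, with 0.21 ± 0.355.

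**Figure D3:**
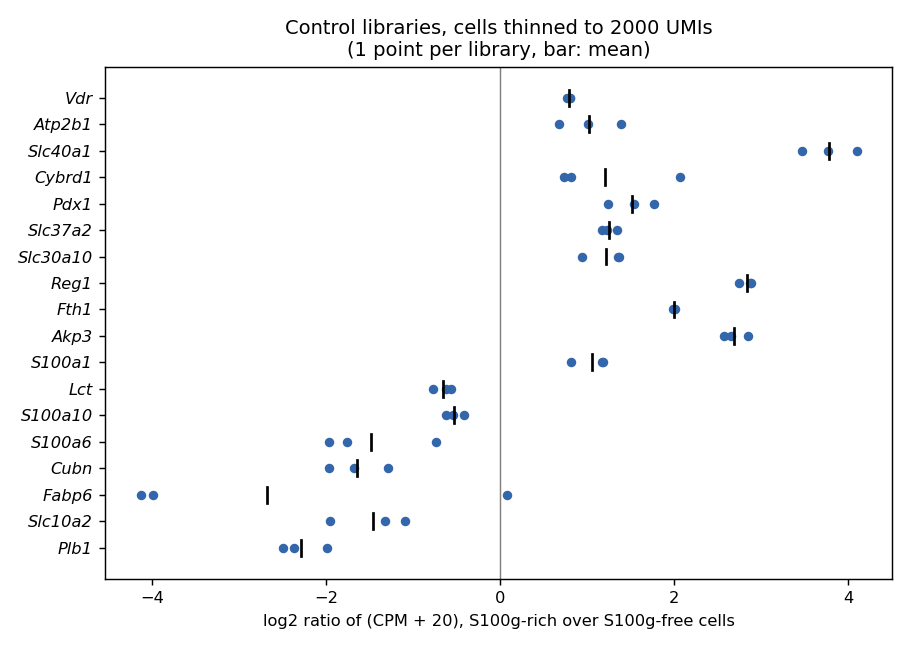
Log2 ratio of CPM + 20 in S100g-rich over S100g-free enterocyte-like cells of the control libraries, all thinned to 2000 UMIs (1 point per library; bar, mean). Vdr and Atp2b1 lie to the right of 0 beside Slc40a1, Pdx1 and Slc37a2, and Fabp6 of control replicate 3 stands apart from the other control libraries.

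RNAs of the proximal and the distal small intestine moved with the label. In enterocyte-like sums, 7 of 8 proximal RNAs (all but Fabp1) had all IE-HuR-/- libraries below all controls, and 3 of 5 ileal RNAs had them above, where 51.6% and 15.9% of all RNAs tested did so. Pdx1 was at 9.64, 7.46 and 9.92 CPM in the controls and 3.27, 2.77 and 3.13 CPM in the libraries labelled IE-HuR-/-. Fabp6 was at 688, 725 and 741 CPM against 2986, 3077 and 3084 CPM. The summed proximal list, dominated by Fabp1, was at 9490 to 9936 CPM in the controls and 9350 to 10141 CPM in the others, and the summed ileal list at 1250 to 1344 CPM against 3723 to 3834 CPM. All 6 stress RNAs were higher in each library labelled IE-HuR-/-, in sum 642 to 676 CPM against 847 to 884 CPM. The part of these differences in that of S100g was not tested. Fewer cells of the proximal kind and less S100g RNA per cell cannot be told apart in the sums.

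S100g was also lower in the libraries labelled IE-HuR-/- within cells marked as proximal. Cells with 2 or more UMIs of Pdx1, Cybrd1 and Slc40a1 together, a choice made after the data were seen, numbered 283, 320 and 206 in control replicates 1, 2 and 3 and 114, 149 and 142 in IE-HuR-/- replicates 1, 2 and 3. They held 83.1%, 68.6% and 88.7% of the control S100g UMIs. In IE-HuR-/- replicates 1, 2 and 3 they held 53.7%, 42.0% and 22.0%. The mark used unthinned counts and so took deep cells. Marked cells of the controls had medians of 24288, 17219.5 and 29075.5 UMIs, against 2137, 1354 and 947 UMIs in unmarked cells. The marker RNAs were themselves higher in S100g-rich control cells, and lower in each library labelled IE-HuR-/- than in any control. The marked cells are therefore not matched across labels, and a change in cell kinds was not tested with them. S100g was at 1268, 1080 and 1692 CPM in them in the controls and at 40.7, 28.6 and 10.7 CPM in the libraries labelled IE-HuR-/-, a log2 fold change of -5.59 (standard error 0.553). Trpv6 had 20, 15 and 21 UMIs in these cells in the controls and 0 UMIs in each library labelled IE-HuR-/-. Vdr was at 321, 305 and 300 CPM against 221, 190 and 212 CPM, and Atp2b1 at 867, 815 and 787 CPM against 462, 454 and 438 CPM. Fabp6 in the same cells was at 90.8, 533 and 590 CPM in the controls and at 1411, 2104 and 1934 CPM in the others, so these cells also differed in ileal RNA. In cells with a Pdx1 UMI, Fabp6 was at 50.7, 83.9 and 24.6 CPM in the controls and 686, 85.8 and 49.8 CPM in the others, and S100g at 920, 770 and 1388 CPM against 34.4, 24.1 and 12.9 CPM. Without the proximal-marked cells the S100g log2 fold change was -3.26 (standard error 0.303). S100g was then at 38.4, 55.8 and 36.4 CPM in the controls, where T or NK-like cells had 24.8, 26.04 and 13.8 CPM. In the libraries labelled IE-HuR-/- it was at 2.85, 4.70 and 4.41 CPM, where T or NK-like cells had 0.667, 2.38 and 0.361 CPM. The part of free RNA in this fold change was not tested.

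Along the villus, Vdr and S100g were read in enterocyte-like cells with at least 2000 UMIs, in 3 groups of equal cell number per library. The groups were ordered by the share of villus tip over lower villus RNAs. Tip groups were the deepest in each library. In the controls their medians were 15805, 12818 and 21116 UMIs, against 7683, 6720 and 9042 UMIs in the lower groups. Vdr was lowest at the tip in each of the 6 libraries. It was at 249, 238 and 245 CPM in the lower groups of the controls and 158, 152 and 156 CPM in the tip groups. In the libraries labelled IE-HuR-/- it was at 196, 179 and 193 CPM in the lower groups and 101, 96.3 and 107 CPM in the tip groups. S100g was held by few cells, as given above, and had no common order in the controls. It was at 162, 292 and 171 CPM in the lower and 205, 88.8 and 319 CPM in the tip groups. In the libraries labelled IE-HuR-/- it was 10.6, 10.9 and 8.98 CPM in the lower and 3.45, 2.46 and 0.695 CPM in the tip groups. Atp2b1 was between 399 and 469 CPM in every group of the controls, and in the libraries labelled IE-HuR-/- it was higher in the lower groups (325 to 358 CPM) than in the middle and tip groups (248 to 274 CPM). The groups were set within each library and are not matched across labels. RNAs of both lists themselves differed between labels. In each library labelled IE-HuR-/-, 5 of 7 villus tip RNAs and 3 of 7 lower villus RNAs, Reg3b and Reg3g among them, were above all controls. Those below all controls numbered 2 and 4. Of all RNAs tested, 15.9% were above and 51.6% below by the same measure. The part of the villus tip and lower villus RNAs in the Vdr difference was not tested.

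S100g was also read in the other classes. Goblet-like cells of the controls had 79.9, 30.4 and 56.4 S100g CPM, and those of the libraries labelled IE-HuR-/- 3.77, 3.45 and 19.3 CPM. A single cell with 62 UMIs held 92.5% of the goblet-like S100g UMIs of IE-HuR-/- replicate 3, and 1 cell with 294 UMIs held 67.9% of those of control replicate 1. At 2000 UMIs, 4.08%, 3.57% and 4.38% of control goblet-like cells had a S100g UMI, which was at or below the T or NK-like background in control replicate 2 and above it in replicates 1 and 3. T or NK-like cells of the controls were at 24.8, 26.04 and 13.8 CPM, and erythroid cells, which should lack S100g as well, at 21.9, 50.4 and 68.7 CPM. In the libraries labelled IE-HuR-/- these classes were at 3.89 CPM or below, under goblet-like cells of replicate 3 and under enteroendocrine-like cells of replicate 2, at 21.9 CPM. Doublets were not removed, and free RNA and doublets were not tested as sources of S100g in these classes, which was therefore not read as expression.

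Vdr and Atp2b1 were counted in each epithelial class. Over the 6 libraries Vdr was 183 ± 31.3 CPM in enterocyte-like, 152 ± 33.0 CPM in crypt-like, 118 ± 31.9 CPM in enteroendocrine-like, 103 ± 31.4 CPM in goblet-like and 73.7 ± 38.8 CPM in tuft-like cells (SD, n = 6). The SD over 6 libraries spans both labels and so includes the difference between them. Within the labels, enterocyte-like Vdr was 211 ± 5.49 CPM in the controls and 155 ± 5.80 CPM in the libraries labelled IE-HuR-/- (SD, n = 3 each). T or NK-like cells had 29.7 ± 14.1 Vdr CPM. Atp2b1 was 359 ± 39.3 CPM in enteroendocrine-like, 354 ± 77.4 CPM in enterocyte-like, 267 ± 47.6 CPM in tuft-like, 238 ± 58.1 CPM in goblet-like and 102.05 ± 29.9 CPM in crypt-like cells. The order of the leading classes differed by label. Enterocyte-like cells were above enteroendocrine-like cells in the controls (424 ± 21.1 against 392 ± 24.4 CPM). They were below them in the libraries labelled IE-HuR-/- (285 ± 1.54 against 327 ± 6.81 CPM). T or NK-like cells had 142 ± 25.9 and erythroid cells 86.6 ± 31.3 Atp2b1 CPM, so that the crypt-like level lay within the range of cells outside the epithelium. In goblet-like cells Vdr was at 131, 121 and 134 CPM in the controls and 91.1, 86.3 and 53.5 CPM in the libraries labelled IE-HuR-/-. Atp2b1 in goblet-like cells was at 295, 274 and 295 CPM against 182, 220 and 163 CPM. Neither gene overlapped between labels there. Of the 9033 RNAs tested in goblet-like cells, 47.2% were without overlap, 35.7% lower and 11.5% higher, and by edgeR's adjusted p 27.6% were called, 12.3% lower and 15.2% higher (1114 and 1377 RNAs, and 2352 and 766 without TMM scaling). In crypt-like cells, only 185 in number, the labels overlapped for both genes. Of the 4580 RNAs tested there, 12.1% were without overlap, 4.83% lower and 7.23% higher, and 0.218% were called, 0.131% lower and 0.0873% higher. Paneth-like cells were too few for a level, with 58 cells and 14 Vdr UMIs in all.

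**Figure D4:**
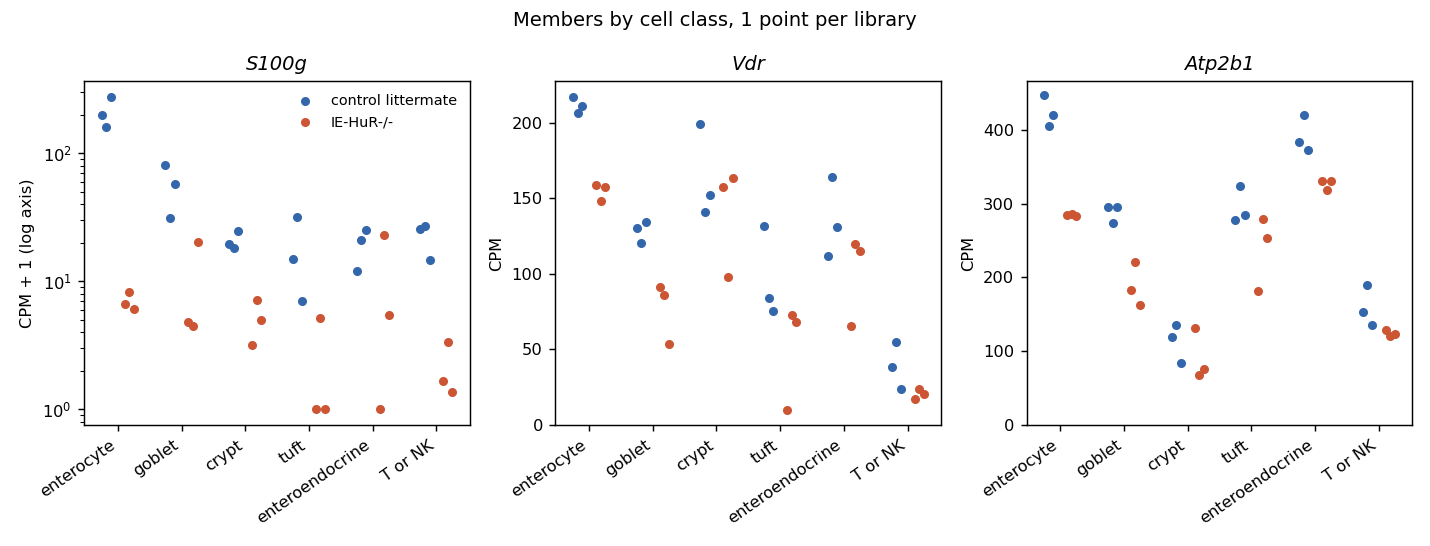
CPM of S100g (CPM + 1 on a log axis), Vdr and Atp2b1 by cell class, 1 point per library (blue, control littermate; red, IE-HuR-/-). S100g of the controls is highest in enterocyte-like cells, and Vdr and Atp2b1 of enterocyte-like and goblet-like cells lie lower in each library labelled IE-HuR-/- than in any control.

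To place these genes in their pathway, 61 further genes of vitamin D and calcium handling were counted in enterocyte-like sums, of which 43 passed the filter. By the quasi-likelihood test of edgeR, adjusted over all RNAs after Benjamini and Hochberg, 11 fell and 19 rose in the libraries labelled IE-HuR-/-, against 31.0% called lower and 27.5% called higher of all RNAs tested. The median log2 fold change of the 43 was 0.08, against -0.03 over all RNAs. Without TMM scaling the balance of the list turned, with 18 called lower, 12 higher and a median of -0.09, and 6271 of all RNAs were called lower and 1883 higher in place of 3963 and 3515.

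The genes that supply or break down vitamin D had 4 of 5 tested members fall and none rise, where 31.0% of all RNAs tested were called lower and 27.5% higher. These shares also apply to the counts of the lists below. Cyp3a11, an enzyme of drug and steroid oxidation that also inactivates vitamin D, went from 2362 ± 114 CPM to 496 ± 13.7 CPM (SD, n = 3). Its log2 fold change was -2.08, with a standard error of 0.0469 and an edgeR adjusted p of 8.97e-30. On the same scale Cyp27a1, the mitochondrial sterol hydroxylase, fell by 1.23 and Cubn, an endocytic receptor that takes up vitamin-binding proteins, by 0.70. Cyp3a11 belongs to a family of similar genes, among which counts can be shared. Earlier results of these data on Cyp3a11 were known when the list was drawn up. Its adjusted p and its place among the 4 are therefore a description. Cyp2r1, the liver hydroxylase of vitamin D, was at 1.25 ± 0.213 CPM against 0.821 ± 0.0840 CPM and did not pass (edgeR adjusted p = 0.0564).

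Partners of the receptor differed little. Of 11 tested receptor partners and coregulators 1 fell (Rxra, by 0.23) and 4 rose, among them Ncor1, the most abundant, by 0.22 (edgeR adjusted p = 5.85e-05). These directions depended on the scaling: without TMM 5 of the 11 were called lower and 0 higher. The Ncor1 difference was then 0.05. Med1 and Pdia3, which are among the 4 and were picked after their values were seen, had lower unscaled means in the libraries labelled IE-HuR-/- than in the controls, 30.9 against 32.0 CPM for Med1 and 163 against 171 CPM for Pdia3. Among 5 other intestinal targets of vitamin D, 2 fell and 2 rose. Slc37a2, a sugar phosphate transporter, fell by 2.01 (standard error 0.0982), from 9.13 ± 0.832 CPM to 2.00 ± 0.196 CPM. Cdkn1a, an inhibitor of the cell cycle, rose by 0.52, and Cldn2, a tight junction protein, rose by 1.22 from a level of 0.933 ± 0.223 CPM.

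Of the apical entry partners, 3 of 5 tested rose and 1 fell, beside 27.5% called higher and 31.0% called lower of all RNAs tested. S100a10 and Anxa2, which form a complex that brings the Trpv6 channel to the membrane, rose by 0.62 and 0.62, from 974 ± 42.6 CPM to 1331 ± 59.6 CPM for S100a10. Rab11a, which recycles the channel, rose by 0.51. Trpm6, a magnesium channel, fell by 0.64 (standard error 0.130). The RNAs of the channel's partners were thus higher in the same sums in which Trpv6 had 1, 0 and 1 UMIs. These sums cover all enterocyte-like cells, whereas Trpv6 was found in 37 of 22622 control cells. In S100g-rich over S100g-free control cells the mean log2 ratios were -0.53 ± 0.102 for S100a10, -0.32 ± 0.0820 for Anxa2 and 0.18 ± 0.274 for Rab11a.

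The other groups were mixed, beside the same 27.5% called higher and 31.0% called lower of all RNAs tested. All 3 tested genes of the cytosolic buffer and sensor list rose, among them Calm3, a calmodulin gene, by 0.69, and Calb1, Calb2 and Pvalb were not tested for low counts. In plasma membrane extrusion 1 of 4 tested genes fell and 1 rose. Slc8a3, a sodium and calcium exchanger, fell by 1.78 from a low level of 0.677 ± 0.174 CPM, and Epb41 rose by 0.15, a direction that was reversed without TMM scaling (-0.02). In calcium stores 5 of 9 rose and 2 fell. Mcu, the mitochondrial calcium uniporter, rose by 0.35, and Stim1, the calcium sensor of the endoplasmic reticulum, fell by 1.14 (standard error 0.0762). Of the hormone and calcium sensing list only Cldn15, a paracellular cation claudin, was tested. It rose by 0.14, and without TMM scaling its difference was -0.02.

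Most tested relatives of S100g in the S100 family were higher. Of 15 further family members 8 were tested, of which 5 rose and 2 fell in enterocyte-like sums, where 27.5% of all RNAs tested were called higher and 31.0% lower. S100a11 rose by 0.89 and S100a14 by 0.65, beside S100a10 above. S100z rose by 0.94 from a low level of 0.850 ± 0.142 CPM. S100a1 and S100a13 fell, by 0.28 and 0.40. In goblet-like sums 5 of 8 rose and 0 fell, beside 15.2% and 12.3% of all RNAs, and in crypt-like sums edgeR called 0 of 5, with 0 at an unadjusted p under 0.05 (10 and 305 of all 4580 RNAs tested there).

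**Figure D5:**
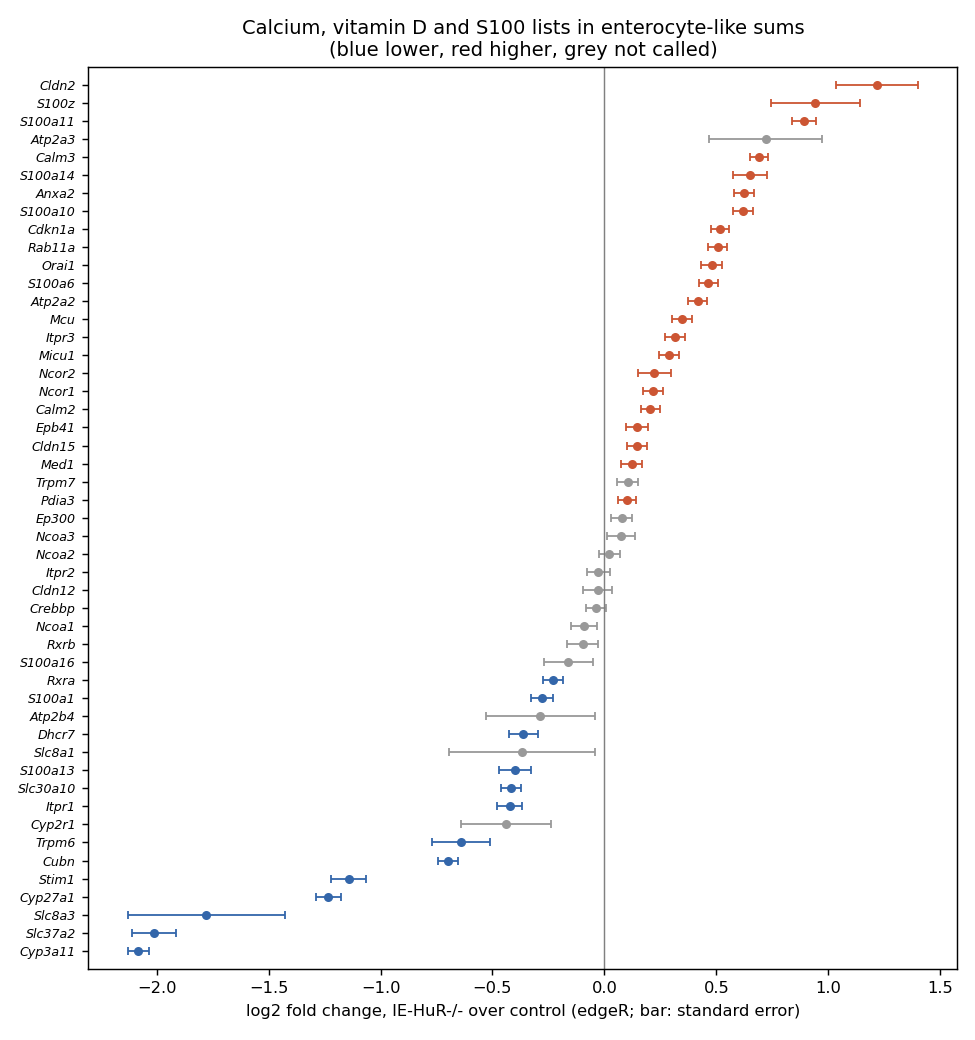
Log2 fold change of IE-HuR-/- over control in enterocyte-like sums (edgeR; bar, standard error) for tested genes of the calcium, vitamin D and S100 lists, all but 1 of which are drawn, with called genes in blue (lower) or red (higher) and others in grey. Cyp3a11 and Slc37a2 lie at -2.08 and -2.01 and Cldn2 at 1.22.

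The RNAs whose pattern was most like that of S100g were found by Pearson's r of log2(CPM + 1) over 18 sums (enterocyte-like, goblet-like and crypt-like cells of 6 libraries, which share library and depth), among RNAs with a mean of at least 10 CPM in enterocyte-like sums. They were Cyp2j6 (r = 0.873), Bche (0.873), Ccl20 (0.864), Cyp2c29 (0.861) and Pisd (0.844). Ccl20, a chemokine, was at 52.4 CPM in the controls and 4.11 CPM in the libraries labelled IE-HuR-/-, and Cyp2c29, an oxidase of a family of similar genes, at 257 CPM and 12.8 CPM. Cyp2j6 was at 282 and 69.8 CPM, Bche at 112 and 25.8 CPM, and Pisd, which differed least, at 100 and 70.8 CPM. For Vdr they were Gin1 (0.927), Sfxn1 (0.914) and Lclat1 (0.904), and for Atp2b1 Ifngr2 (0.990), Cyp2c55 (0.986) and Slc7a15 (0.981). Likeness over these sums follows both the class and the label. For S100g it also includes goblet-like and crypt-like sums, where S100g was not read as expression. The crypt-like sums of the 6 libraries held 27 S100g UMIs in all. These r values are therefore a description of the sums only.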

How the data were processed

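Unnormalised UMI counts of 6 libraries, as the authors deposited them, were used (Cell Ranger 6.1.2 per the file headers, mm10 per the submitters' processing notes). Each barcode held 500 or more UMIs. A 5' kit is named in the labels, whereas a 3' kit and the human genome appear in the methods, and the tables hold mouse genes. The 5 genes, the lists and the marker panels were chosen with earlier results of these data known. Cells with at least 200 genes were gated by the share of UMIs in marker panels (enterocyte at least 2%, epithelial at least 0.5%), with thresholds set after the panels, not the 5 genes, had been seen. No doublets were removed. Counts were summed per library and class and fitted in R 4.3.3 by edgeR 4.0.16 (TMM scaling, filterByExpr at minimum count 10 and minimum total 15, robust quasi-likelihood test, Benjamini-Hochberg adjusted p under 0.05 called), with the 6 libraries as replicates. Standard errors are the log2 fold change over the root of F. DESeq2 1.42.0, no TMM, no filter, thinned sums, stricter cells, doubled thresholds, the replicate number as a block and 1 library left out were alternatives. Named list genes were those called with a log2 fold change of at least 0.5 in size and the most abundant of each list, and others were chosen after their values were seen. Of the genes this rule names, 1 is not reported here. Replicate libraries were not copies (chi-square per degree of freedom 5.64 to 13.8). In simulated sums, 200 RNAs were given a log2 change of 2, and 127 of 127 tested changed RNAs were recovered in enterocyte-like, 113 of 114 in goblet-like and 84 of 91 in crypt-like sums. Of the RNAs called there, 5.22%, 2.59% and 2.33% were not among the changed ones. The simulation used a common dispersion and few changed RNAs. It does not cover the smaller and more numerous changes called in the real sums. Other columns of per-sample values were absent from the tables.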

Additional observations from a re-analysis of the deposited data

How the results depend on the processing

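The enterocyte-like sums held 42503097 to 67024521 UMIs, and the crypt-like sums 250725 to 466929, which limits the latter. Replicate numbers did not pair the libraries (same-number correlations 0.01, -0.11 and -0.02 in enterocyte-like sums). With the replicate block, crypt-like calls went from 10 to 16 and list calls stayed at 30 and 7. Crypt-like calls were 81 with no filter on low counts, 1 with gate thresholds doubled, and 0 without the 5% of cells with most UMIs (edgeR; 298 at an unadjusted p under 0.05). They were 27 and 4 without control replicates 2 and 3 and 28 and 4 without IE-HuR-/- replicates 1 and 3, a range of 4 to 28. Without 1 library, calls were 6773 to 7179 of 7478 in enterocyte-like and 1954 to 2376 of 2491 in goblet-like sums, 26 to 33 of 30 in the calcium and vitamin D list, and 7 to 7 of 7 in the S100 family. Fold changes then ranged from -5.14 to -4.72 for S100g, -0.31 to -0.23 for Vdr, -4.74 to -3.80 for Trpv6 and -0.44 to -0.36 for Atp2b1, and the S100g share difference from 12.7 to 15.3 percentage points (13.8 over all libraries). Vdr was -0.45 and Atp2b1 -0.57 with no TMM scaling, Vdr was -0.21 with gate thresholds doubled, and Trpv6 was -7.12 in cells with at least 2000 UMIs. That value and the Trpv6 value in proximal-marked cells stand against 0 UMIs in each library labelled IE-HuR-/-, so they are set by the prior count and measure no fold. The S100g share difference was 8.98 points in cells thinned to 2000 UMIs and 7.40 points at 1000. Epb41 (-0.0243) and Cldn15 (-0.0248) reversed with no TMM scaling. Added after seeing the data, proximal-marked cells alone gave -5.59 for S100g, -0.45 for Vdr, -6.89 for Trpv6 and -0.74 for Atp2b1, with 15 list calls and 1 S100 call. Without these cells S100g was -3.26, Vdr -0.21 and Atp2b1 -0.27. Cells with a Pdx1 UMI alone gave -0.44 for Vdr and -0.63 for Atp2b1, with 15 list calls and 2 S100 calls. Smaller numbers of cells and UMIs enter these fits, and the cause of the other shifts was not tested. The other 130 alternatives kept totals within 1.5 times and fold changes and shares within the replicate spread. Totals hide the direction: with no TMM scaling lower and higher calls went from 3963 and 3515 to 6271 and 1883 in enterocyte-like sums, from 1114 and 1377 to 2352 and 766 in goblet-like sums, and from 11 and 19 to 18 and 12 in the list. Cldn2 with doubled thresholds, Ncor1 with no TMM scaling, Epb41 without control replicate 2 and Cldn15 without control replicate 1 or 2 were no longer called. Trpv6 did not pass the filter, and could not be fitted, under the stricter cell filter, doubled thresholds, without the cells with most UMIs, without proximal-marked cells or in cells with a Pdx1 UMI.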
